A study of Mus musculus with 12 samples.

Results

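Aminoacyl tRNA synthetases are the enzymes that join each amino acid to its tRNA, and their transcripts were examined in mouse liver after ethanol feeding. The genes were taken by name: a single letter followed by Ars, with or without a closing 2, plus Eprs, Farsa and Farsb. This gave 37 of the 13097 genes measured, of which 17 have names that end in 2 and encode mitochondrial enzymes. The other 20 encode cytosolic or dual enzymes. All 37 passed the filter on low counts.

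RNA was sequenced from snap-frozen livers of 12 female C57BL/6 mice aged 3 months, with 3 mice in each of 4 groups. Wild type mice and mice labelled as carrying a liver-specific knockout of Sirt6 were compared, and Sirt6 encodes an NAD-dependent chromatin deacylase. Ethanol-fed mice of each genotype received a Lieber-DeCarli liquid diet with 5% ethanol over 10 days, followed by 1 ethanol binge of 5 g/kg. Pair-fed mice of each genotype received an isocaloric control diet over the same 10 days and a binge of maltose dextrin. The Cre driver behind the knockout is not named in the labels.

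A synthetase activates its amino acid with ATP and transfers it to the matching tRNA, and the 2 structural classes differ in the fold of the catalytic domain. Most amino acids have a cytosolic enzyme and a separate nuclear-encoded mitochondrial enzyme, while Gars and Kars encode both forms from 1 gene. Eprs encodes a fused enzyme for glutamate and proline, and Farsa and Farsb encode the 2 subunits of the cytosolic phenylalanine enzyme. In animal cells 8 of these genes encode enzymes of a multisynthetase complex (Eprs, Iars, Lars, Mars, Qars, Rars, Kars and Dars). Uncharged tRNA activates the kinase encoded by Eif2ak4, which phosphorylates eIF2alpha and favours translation of the transcription factor ATF4. Several cytosolic synthetase genes are known targets of ATF4.

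Total counts ranged from 17305141 to 18279809 per library. Sirt6 itself was not called lower under the knockout label. Its counts were 51, 49 and 68 in pair-fed wild type mice and 52, 46 and 47 in pair-fed labelled knockouts. After ethanol the counts were 67, 54 and 60 in wild type mice and 53, 58 and 62 in labelled knockouts. The log2 fold change of labelled knockout over wild type was -0.23 ± 0.21 (SE, n = 3 per group) when pair-fed and 0.01 ± 0.21 when ethanol-fed, both without a call. Whole-gene counts do not show whether a deleted exon is missing, so the genotype is named here by its label. The hepatocyte transcript Alb took 11.03% to 12.69% of counts in pair-fed and 6.102% to 9.552% in ethanol-fed libraries. Of 12 Kupffer cell and macrophage markers none was at 0. Their summed level was 406 to 609 CPM in pair-fed wild type and 602 to 768 CPM in pair-fed labelled knockout mice. After ethanol it was 291 to 673 CPM in wild type and 280 to 374 CPM in labelled knockout mice. In wild type mice 0 of these 12 markers were called after ethanol by edgeR, DESeq2 or limma-voom, with 0 at an unadjusted p under 0.05, and in labelled knockouts 11 of 12 fell, where 10.9% of all genes did (11 by DESeq2 and 10 by limma-voom). The median log2 fold change of the 12 was -0.26 in wild type and -1.21 in labelled knockout mice. A difference in the ethanol change between genotypes (the interaction) was called for 0 of the 12 (smallest edgeR adjusted p = 0.936). Its unadjusted p was under 0.05 for 7, where 5.31% of all genes had such a p. The markers were therefore not shown to respond differently by genotype. In bulk liver, fewer cells of a type and less RNA per cell cannot be told apart. The part of cell composition in the results below was not tested.

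Levels between genes are compared as CPM (read counts scaled to library size with TMM) per kb of exon. In pair-fed wild type liver, Aars, the alanine enzyme, stood highest at 62.6 ± 6.11 CPM per kb (SD, n = 3). Tars, for threonine, and Nars, for asparagine, followed at 46.7 and 46.3 CPM per kb and did not differ beyond their spread. The order then ran through Kars at 32.9, Dars at 31.1 and Eprs at 27.4 CPM per kb. Iars2, which charges isoleucine in mitochondria, was the highest mitochondrial member at 23.3 CPM per kb, at rank 7 of all 37. Lars, for leucine, ranked 24 at 6.67 CPM per kb, and Wars, for tryptophan, was the lowest cytosolic member at 5.46 CPM per kb. The 3 lowest members were Wars2 at 2.00, Mars2 at 1.01 and Pars2, the mitochondrial proline enzyme, at 0.455 CPM per kb. In ethanol-fed wild type liver Aars was again first at 129 ± 38.9 CPM per kb, Lars moved from rank 24 to rank 17 and Iars from rank 20 to rank 9.

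**Figure D1:**
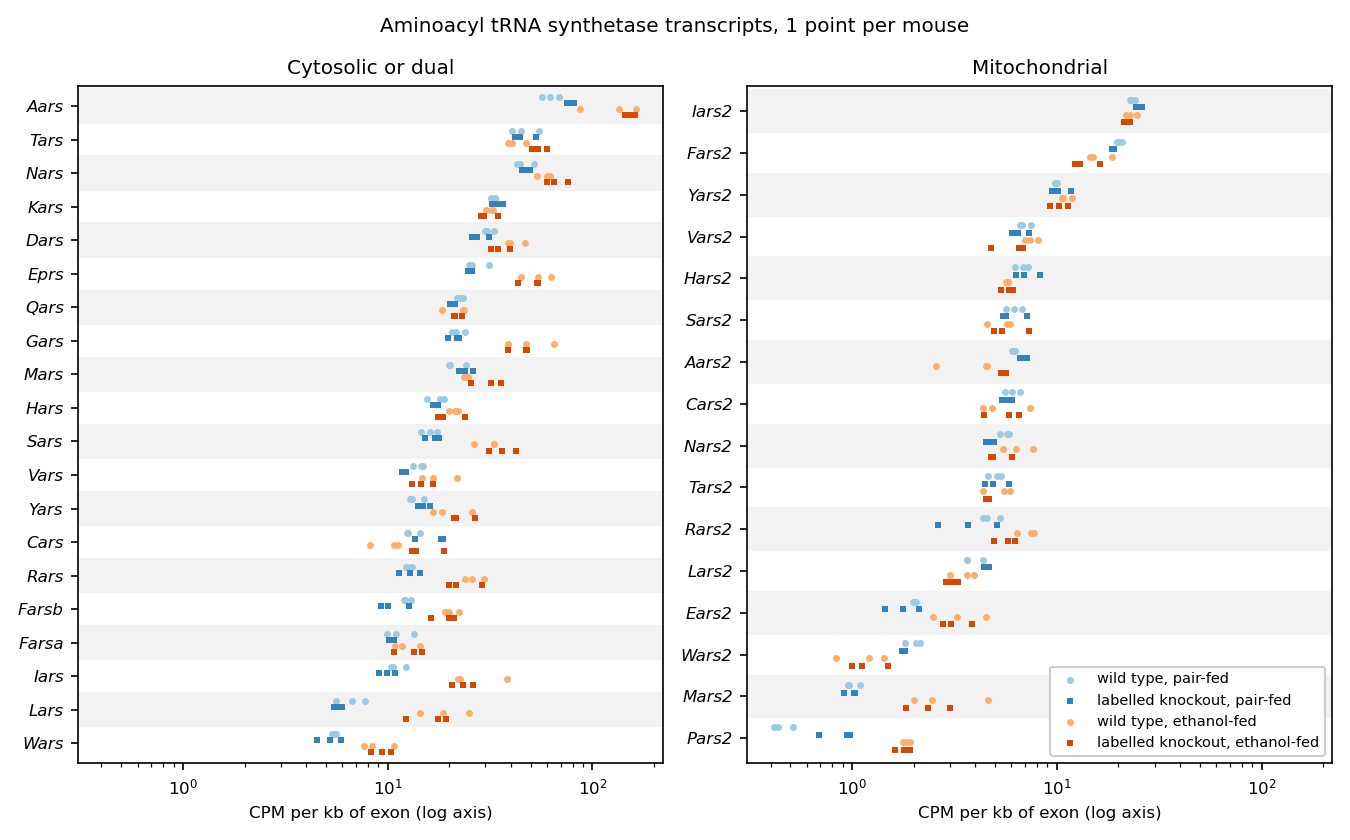
Level of each synthetase transcript described here in CPM per kb of exon (log axis), 1 point per mouse, with cytosolic or dual genes on the left and mitochondrial genes on the right. Colour and symbol give the 4 groups; Aars is at the top and Pars2 at the bottom of the order set by pair-fed wild type liver.

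After ethanol feeding, transcripts of 11 of the 20 cytosolic or dual genes rose in each genotype, with those for leucine, isoleucine and glycine among the largest rises. In wild type mice 11 cytosolic genes rose and 0 fell, where 33.4% of all 13097 genes were called, 18.9% higher and 14.5% lower (edgeR quasi-likelihood, Benjamini-Hochberg adjusted p under 0.05). In labelled knockouts 11 rose and 0 fell, where 24.6% of all genes were called, 13.7% higher and 10.9% lower. The 3 ethanol-fed values lay wholly above the pair-fed ones for 13 cytosolic genes in wild type mice (24.8% of all genes did) and for 15 in labelled knockouts (23.5%). At an unadjusted p under 0.05, edgeR had 1 cytosolic gene lower in wild type mice (Cars) and 0 in labelled knockouts, and DESeq2 and limma-voom called 0 lower in either. The median log2 fold change of the 20 genes was 0.50 and 0.55 in the 2 genotypes, beside 0.03 and 0.04 over all genes. The summed cytosolic level went from 1347 ± 110 to 2108 ± 307 CPM in wild type and from 1386 ± 32.3 to 2220 ± 170 CPM in labelled knockout mice (SD, n = 3). Aars alone went from 232 to 478 CPM and from 289 to 569 CPM within these sums. The summed mitochondrial level was 340 ± 1.87 CPM pair-fed and 341 ± 0.391 CPM ethanol-fed in wild type mice, and 344 ± 17.4 and 317 ± 3.95 CPM in labelled knockouts. The genes that rose in both genotypes numbered 10 (Aars, Eprs, Farsb, Gars, Iars, Lars, Rars, Sars, Wars and Yars), which is 90.9% of each list of cytosolic calls.

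Lars had the largest cytosolic rise in each genotype. In wild type mice it read 25.4, 29.4 and 21.3 CPM pair-fed and 54.5, 71.0 and 95.4 CPM ethanol-fed. In labelled knockouts it read 22.8, 21.5 and 20.8 CPM pair-fed and 66.8, 46.8 and 73.7 CPM ethanol-fed. The lowest ethanol-fed mouse lay above the highest pair-fed mouse in each genotype, and wild type mouse 3 was the highest of all 12. The log2 fold change was 1.54 ± 0.21 (edgeR adjusted p = 0.000310) in wild type and 1.52 ± 0.21 (adjusted p = 0.000550) in labelled knockout mice.

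Iars, for isoleucine, read 46.9, 54.0 and 45.8 CPM in pair-fed and 96.6, 99.1 and 168 CPM in ethanol-fed wild type mice. The labelled knockouts read 40.1, 43.6 and 47.7 CPM pair-fed and 115, 103 and 90.8 CPM ethanol-fed. Groups did not overlap, and wild type mouse 3 again stood above the other ethanol-fed mice. The log2 fold changes were 1.31 ± 0.19 (edgeR adjusted p = 0.000471) and 1.23 ± 0.19 (adjusted p = 0.00102).

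Gars, whose products charge glycine in cytosol and mitochondria, read 51.7, 56.8 and 49.3 CPM in pair-fed and 92.6, 113 and 156 CPM in ethanol-fed wild type mice. Its labelled knockout values were 52.0, 53.5 and 46.8 CPM pair-fed and 115, 92.5 and 113 CPM ethanol-fed. Every ethanol-fed value was above every pair-fed value of its genotype, with log2 fold changes of 1.20 ± 0.17 (edgeR adjusted p = 0.000384) and 1.07 ± 0.17 (adjusted p = 0.00107).

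Aars, the most abundant member, read 211, 256 and 231 CPM in pair-fed and 323, 503 and 608 CPM in ethanol-fed wild type mice. The labelled knockouts read 278, 288 and 302 CPM pair-fed and 567, 539 and 601 CPM ethanol-fed. Wild type mouse 1 had the smallest ethanol-fed value, still above its pair-fed group. The rise was 1.04 ± 0.19 (edgeR adjusted p = 0.00141) and 0.98 ± 0.19 (adjusted p = 0.00299) on the log2 scale.

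Eprs read 126, 152 and 121 CPM in pair-fed and 217, 264 and 304 CPM in ethanol-fed wild type mice, and the groups did not overlap. It rose by 0.98 ± 0.15 in wild type and 1.00 ± 0.15 in labelled knockout mice (edgeR adjusted p = 0.000537 and 0.000771). Sars, for serine, read 53.8, 64.6 and 59.4 CPM in pair-fed and 97.4, 122 and 123 CPM in ethanol-fed wild type mice. Its log2 rise was 0.94 ± 0.14 there and 1.13 ± 0.14 in labelled knockouts, and the smallest cytosolic adjusted p in labelled knockouts was that of Sars (0.000373). Rars, the arginine enzyme, rose by 1.05 ± 0.15 and 0.86 ± 0.15, Farsb by 0.73 ± 0.14 and 0.84 ± 0.14, and Wars by 0.71 ± 0.15 and 0.84 ± 0.15. Those 3 genes had groups that did not overlap in either genotype.

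The remaining cytosolic calls were smaller. Yars, for tyrosine, rose by 0.57 ± 0.16 and 0.62 ± 0.16 (edgeR adjusted p = 0.0170 and 0.0159). Dars, for aspartate, rose by 0.42 ± 0.13 in wild type mice (adjusted p = 0.0229), and was 0.33 ± 0.13 in labelled knockouts (adjusted p = 0.0805). Nars stood at 0.34 ± 0.13 in wild type (adjusted p = 0.0579) and rose by 0.49 ± 0.13 in labelled knockout mice (adjusted p = 0.0146). The wild type Nars estimate was called with total counts, by DESeq2, and without pair-fed wild type mouse 2 or ethanol-fed labelled knockout mouse 3. The wild type calls of Dars and Yars were each lost without pair-fed mouse 1, pair-fed mouse 3 or ethanol-fed mouse 3. In labelled knockouts the Nars call was lost without pair-fed mouse 1 or 2, and the Yars call without pair-fed mouse 1 or 2 or ethanol-fed mouse 3.

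Neither genotype gave a call for 8 cytosolic genes. Kars, for lysine, read 72.5, 76.3 and 76.2 CPM in pair-fed and 74.2, 68.5 and 72.7 CPM in ethanol-fed wild type mice, with log2 fold changes of -0.06 ± 0.11 and -0.15 ± 0.11 in the 2 genotypes. Qars, for glutamine, gave -0.04 ± 0.12 and 0.07 ± 0.12, and the standard errors of Kars and Qars were the smallest of the cytosolic genes. Tars, second in abundance, gave -0.14 ± 0.15 and 0.24 ± 0.15, with overlapping groups. Hars, for histidine, gave 0.28 ± 0.13 and 0.22 ± 0.13, and its ethanol-fed values were all above its pair-fed values in each genotype without passing the test (adjusted p = 0.128 and 0.234). Vars, Mars and Farsa, for valine, methionine and phenylalanine, lay between 0.11 and 0.37. With total counts in place of TMM, Hars was called higher in wild type and Mars in labelled knockout mice, and Mars also without ethanol-fed labelled knockout mouse 1.

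Cars, the cysteine enzyme, was the single cytosolic gene whose 3 ethanol-fed wild type values all lay below the pair-fed ones. Of all genes 22.3% did so. It read 40.7, 46.5 and 40.0 CPM pair-fed and 34.4, 36.1 and 26.4 CPM ethanol-fed in wild type mice. The log2 fold change of -0.39 ± 0.18 did not pass (edgeR adjusted p = 0.105). In labelled knockouts the groups overlapped, at 43.7, 60.2 and 58.9 CPM pair-fed and 42.3, 44.5 and 60.6 CPM ethanol-fed.

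**Figure D2:**
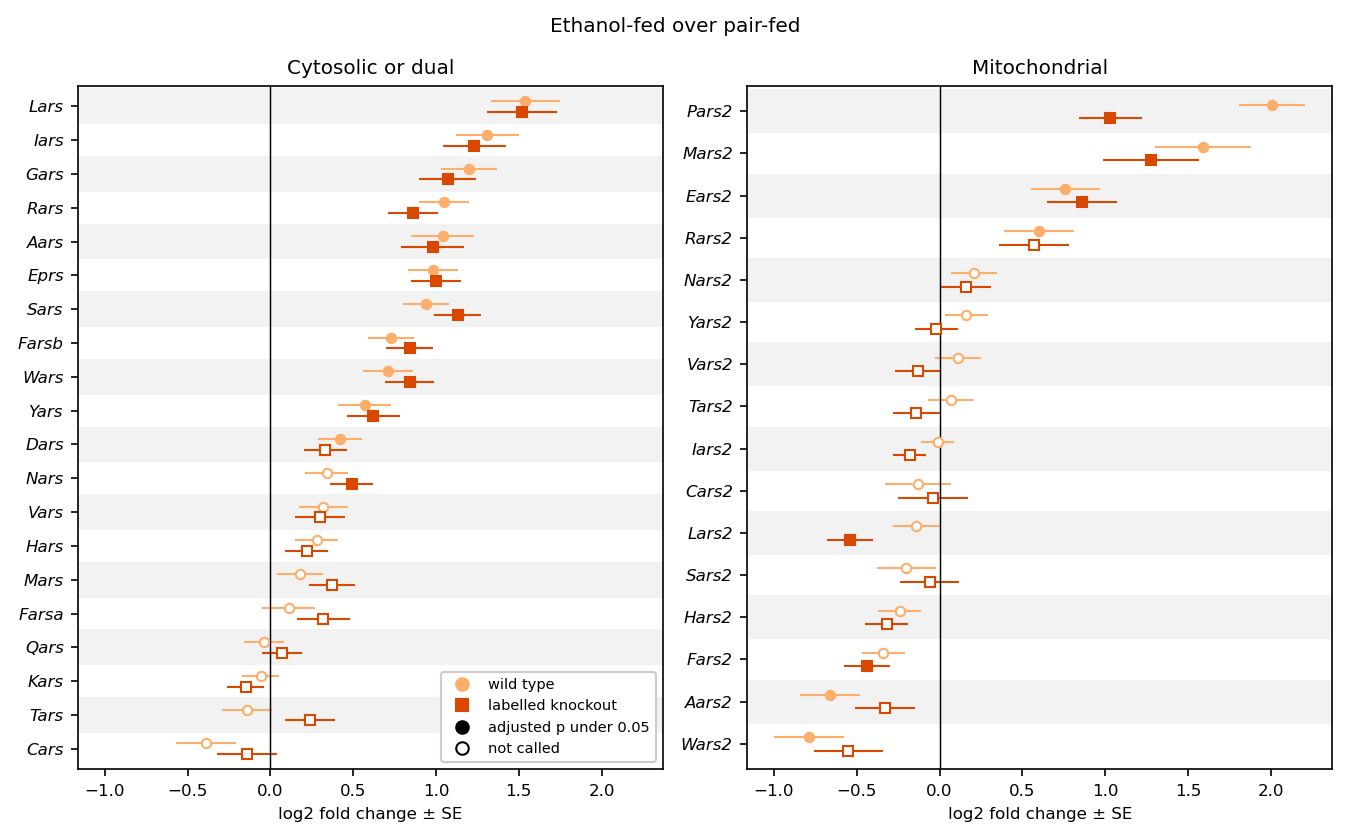
Log2 fold change of ethanol-fed over pair-fed liver for each synthetase gene described here with its standard error (n = 3 per group), cytosolic or dual on the left and mitochondrial on the right. Circles are wild type and squares labelled knockout mice, and filled symbols passed an adjusted p of 0.05; Lars leads the cytosolic genes at 1.54 and 1.52, and Pars2 the mitochondrial genes at 2.01 in wild type mice.

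Promoter sequence was compared with these changes, because many genes of the amino acid response carry a composite element bound by C/EBP and ATF proteins. RefSeq promoter windows (GRCm38.p6, from 250 bases before to 50 after the gene start) were matched for 26 of the 37 members, 12 cytosolic and 14 mitochondrial. The element was searched as TGATGNAA on both strands. It was in the windows of 5 of 12 cytosolic genes (Aars, Gars, Iars, Tars and Yars) and of 0 of 14 mitochondrial genes, where 3.97% of all 32851 windows and 4.51% of the 27025 genes with a window held it. The cAMP response element TGACGTCA was in 0 windows of either kind, against 1.79% of all windows, so no member's TGATGNAA match overlapped one. No promoter window was read for Cars, Hars, Lars, Mars, Nars, Rars, Vars, Wars, Hars2 or Pars2. The 6 matches are shown 5′ to 3′ on the gene's strand with the matched bases in capitals, to show how alike the core is between genes.
Aars, chr8:111033704-111033763, + strand, 112 bases before the start: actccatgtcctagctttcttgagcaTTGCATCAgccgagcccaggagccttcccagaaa
Aars, chr8:111033840-111033869, + strand, within the first transcribed bases: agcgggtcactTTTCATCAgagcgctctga
Gars, chr6:55037945-55038000, + strand, 30 bases before the start: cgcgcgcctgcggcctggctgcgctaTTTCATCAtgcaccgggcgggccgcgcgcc
Iars, chr13:49682126-49682155, + strand, within the first transcribed bases: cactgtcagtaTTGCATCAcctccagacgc
Tars, chr15:11399659-11399699, - strand, 15 bases before the start: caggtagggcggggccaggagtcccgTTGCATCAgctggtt
Yars, chr4:129189895-129189924, + strand, just after the RefSeq start used for the window: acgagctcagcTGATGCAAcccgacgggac

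In Aars, Iars and Tars the matched bases were the same TTGCATCA, and Yars carried the same 8 bases on its other strand. Gars and the second match of Aars had TTTCATCA. Of the 5 genes with a match, Aars, Gars, Iars and Yars rose in both genotypes, while Tars had the match and no call, at -0.14 ± 0.15 in wild type and 0.24 ± 0.15 in labelled knockout mice. Eprs, Sars and Farsb rose without a match in their windows. The deposited table places the start of Yars upstream of that RefSeq start, at 129189795, so the Yars window is that of another transcript start. A match in these letters is a description of the window and not a measured binding site.

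By place in the cell's protein assemblies, members of the multisynthetase complex and the free enzymes both rose in part. Of all genes 18.9% rose in wild type mice and 13.7% in labelled knockouts. Of the 8 complex genes 5 rose in wild type mice (Dars, Eprs, Iars, Lars and Rars) and 4 in labelled knockouts, with medians of 0.70 and 0.61. Of the 12 cytosolic genes outside it 6 and 7 rose, with medians of 0.45 and 0.55. The complex's 3 scaffold genes split: Eef1e1 rose by 1.37 ± 0.22 and 0.92 ± 0.22 (edgeR adjusted p = 0.000816 and 0.0109), while Aimp1 stood at 0.03 ± 0.14 and -0.05 ± 0.14 and Aimp2 at 0.15 ± 0.17 and -0.04 ± 0.17. By structural class, 5 of 9 class I and 5 of 10 class II cytosolic genes rose in each genotype, with Eprs holding a catalytic domain of each class.

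Among the 17 mitochondrial genes the shares called were near those of all genes. In wild type mice 4 rose (Pars2, Mars2, Ears2 and Rars2) and 2 fell (Wars2 and Aars2), beside 18.9% of all genes higher and 14.5% lower, with a median log2 fold change of -0.01. Labelled knockouts had 3 rises (Pars2, Mars2 and Ears2) and 2 falls (Lars2 and Fars2), beside 13.7% and 10.9% of all genes, with a median of -0.13. The medians and the sign of small estimates depend on scaling: with total counts in place of TMM the wild type median was 0.14, the labelled knockout median -0.02, and that over all genes 0.18 and 0.14.

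Pars2 had the largest change of any member in wild type mice. It read 1.60, 1.34 and 1.29 CPM in pair-fed and 5.70, 5.93 and 5.49 CPM in ethanol-fed wild type mice. In labelled knockouts it read 2.91, 3.03 and 2.14 CPM pair-fed and 5.57, 5.03 and 5.93 CPM ethanol-fed. The 6 ethanol-fed mice lay within 5.03 and 5.93 CPM whatever the genotype, whereas the pair-fed genotypes did not overlap. The counts behind the pair-fed wild type values were 28, 23 and 22 reads. The log2 rise was 2.01 ± 0.20 in wild type (edgeR adjusted p = 7.73e-05) and 1.03 ± 0.19 in labelled knockout mice (adjusted p = 0.00262).

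Mars2, which charges the mitochondrial methionyl tRNA used for initiation and elongation, read 2.79, 3.16 and 2.75 CPM in pair-fed and 7.09, 5.81 and 13.3 CPM in ethanol-fed wild type mice. The labelled knockouts read 2.97, 2.64 and 2.95 CPM pair-fed and 8.68, 5.31 and 6.74 CPM ethanol-fed. The groups did not overlap in either genotype, and the ethanol-fed mice differed widely among themselves. Its log2 rise was 1.59 ± 0.29 (edgeR adjusted p = 0.00157) and 1.28 ± 0.29 (adjusted p = 0.00812).

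Ears2, for glutamate, read 13.4, 12.9 and 13.1 CPM in pair-fed and 21.3, 16.2 and 29.4 CPM in ethanol-fed wild type mice. It rose by 0.76 ± 0.21 and 0.86 ± 0.21 (edgeR adjusted p = 0.0139 and 0.0113). The wild type call was lost without ethanol-fed mouse 3 and the labelled knockout call without pair-fed mouse 2. Rars2, for arginine, rose by 0.60 ± 0.21 in wild type mice (adjusted p = 0.0392), a call lost when any 1 of pair-fed mice 1, 2 and 3 or ethanol-fed mice 1 and 3, or pair-fed labelled knockout mouse 2, was left out, and not made by limma-voom. In labelled knockouts it stood at 0.57 ± 0.21 (adjusted p = 0.0653).

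Wars2, for tryptophan, fell by 0.79 ± 0.21 in wild type mice (edgeR adjusted p = 0.0115), from 9.01, 7.95 and 9.41 CPM to 5.28, 3.65 and 6.26 CPM. The groups did not overlap, as for 22.3% of all genes in this direction, and the estimate in labelled knockouts was -0.55 ± 0.21 (adjusted p = 0.0713). Aars2, for alanine, read 20.4, 20.3 and 20.8 CPM pair-fed and 15.3, 15.1 and 8.56 CPM ethanol-fed in wild type mice, with mouse 3 lowest. It fell by 0.66 ± 0.18 (adjusted p = 0.0132) and stood at -0.33 ± 0.18 in labelled knockouts (adjusted p = 0.185).

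Lars2, for leucine, fell by 0.54 ± 0.14 in labelled knockouts (edgeR adjusted p = 0.0138), from 18.02, 17.13 and 17.04 CPM to 11.13, 11.98 and 12.73 CPM. Values lay wholly lower after ethanol for 20.4% of all genes in labelled knockouts, and for 7 mitochondrial members, Lars2 included. Its wild type groups overlapped at -0.14 ± 0.14. Fars2, for phenylalanine, fell by 0.44 ± 0.14 in labelled knockouts (adjusted p = 0.0304) and stood at -0.34 ± 0.13 in wild type mice (adjusted p = 0.0699). Leaving out any 1 of pair-fed mice 1, 2 and 3 or ethanol-fed mice 1 and 2 ended the Fars2 call.

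Cars2, Hars2, Iars2, Nars2, Sars2, Tars2, Vars2 and Yars2 had no call in either genotype, with log2 fold changes from -0.32 to 0.21. Iars2, the most abundant of them, read 80.4, 85.3 and 81.3 CPM in pair-fed and 80.9, 87.2 and 76.8 CPM in ethanol-fed wild type mice, at -0.01 ± 0.10.

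Each amino acid's cytosolic and mitochondrial transcripts were then set against each other within a library, as a ratio of CPM per kb in which the scaling between libraries cancels. These ratios cover 18 pairs and are described without a test. The pairs are not separate, since Eprs and Fars2 each enter 2 of them. How often the ratios of other gene pairs lie wholly apart was not measured. Of single genes 24.8% lay wholly higher after ethanol and 22.3% wholly lower in wild type mice, and 23.5% and 20.4% in labelled knockouts. In wild type mice the 3 ethanol-fed ratios lay above the 3 pair-fed ratios for 10 pairs, below them for 2 and overlapped for 6. In labelled knockouts they lay above for 11 pairs, below for 1 and overlapped for 6. Iars stood below Iars2 in every pair-fed wild type liver, at a ratio of 0.453 to 0.510, and at 0.915 to 1.76 after ethanol. In labelled knockouts the same ratio was 0.374 to 0.439 pair-fed and 0.920 to 1.14 ethanol-fed. Farsb over Fars2 was 0.572 to 0.656 pair-fed and 1.07 to 1.49 ethanol-fed in wild type mice, so the order of the 2 transcripts was reversed in all 3 ethanol-fed mice. Aars over Aars2 was 9.30 to 11.3 pair-fed and 19.0 to 64.0 ethanol-fed. Lars over Lars2 was 1.28 to 2.11 pair-fed and 3.94 to 8.32 ethanol-fed. Methionine went the other way, since Mars over Mars2 was 20.6 to 22.1 pair-fed and 5.07 to 12.3 ethanol-fed in wild type mice, and 21.6 to 26.1 and 8.50 to 17.32 in labelled knockouts. Eprs over Pars2 was 50.2 to 72.1 pair-fed and 24.3 to 35.4 ethanol-fed in wild type mice. In labelled knockouts the Eprs over Pars2 ratio was 25.8 to 35.7 in pair-fed and 26.6 to 30.3 in ethanol-fed mice, which overlapped.

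**Figure D3:**
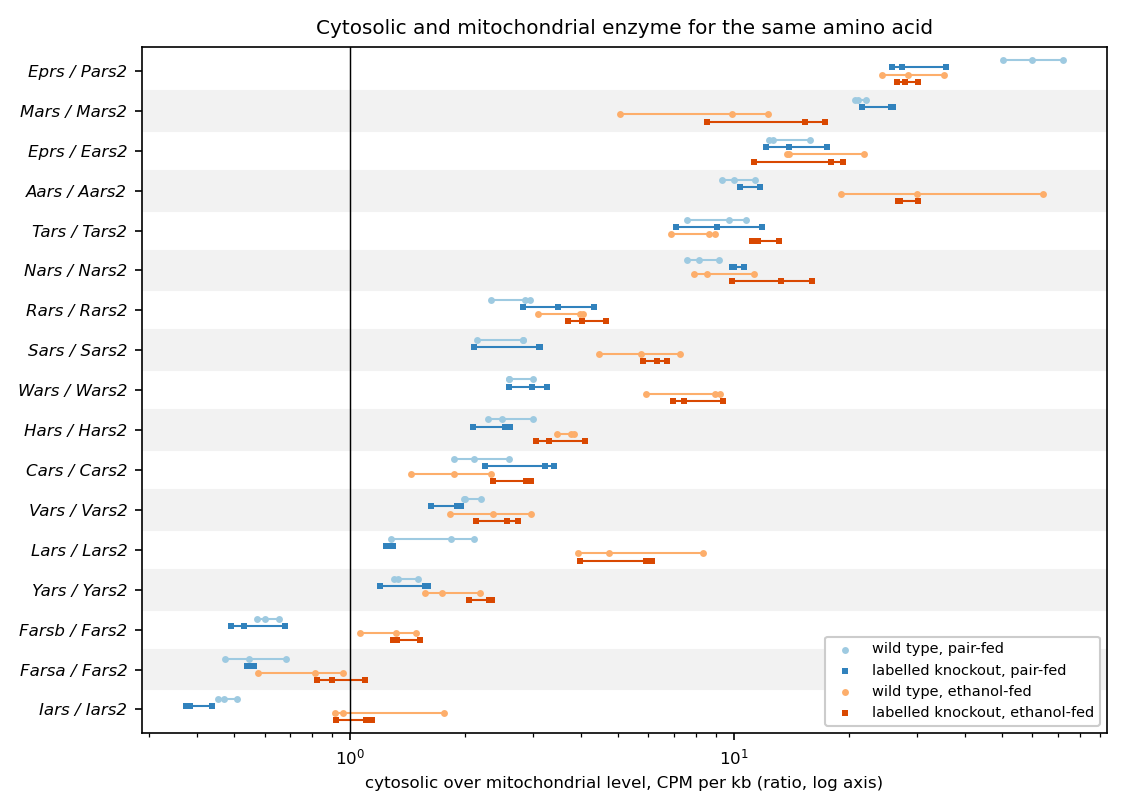
Ratio of the cytosolic to the mitochondrial transcript for the amino acids described here (CPM per kb, log axis), with 3 points per group for the 3 mice and a line over their range. The vertical line marks equal levels; ratios of Iars to Iars2 go from 0.453 to 0.510 in pair-fed to 0.915 to 1.76 in ethanol-fed wild type mice, and ratios of Mars to Mars2 lie lower after ethanol in each genotype.

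Spread between mice was wider after ethanol. The median coefficient of variation of the 20 cytosolic genes was 8.97% and 6.86% in pair-fed wild type and labelled knockout mice, and 14.3% and 12.4% in the ethanol-fed groups. Ethanol-fed wild type mouse 3 had the highest value of its group for 13 of 20 cytosolic genes, and ethanol-fed labelled knockout mouse 3 for 14 of 20. Pair-fed wild type mouse 2 was the highest of its group for 16 of 20. Summed hepatocyte markers, 6 of 7 of which were in the table with none at 0, were 141824 to 143785 CPM in pair-fed and 74146 to 105783 CPM in ethanol-fed wild type mice. In labelled knockouts they were 133405 to 153751 CPM pair-fed and 68742 to 128423 CPM ethanol-fed. Alb is among the 6 markers summed. After ethanol, edgeR called 2 of the 6 lower in wild type livers (Alb and Ttr) and 0 higher, where 14.5% of all genes were lower. For labelled knockouts the calls were 0 lower and 1 higher (Cps1), where 13.7% of all genes were higher. Their median log2 fold change was -0.34 in the wild type and -0.03 in the labelled knockout genotype. The part of these differences in the synthetase values was not tested.

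Many genes of the ATF4 amino acid response, which include amino acid enzymes and transporters, rose after ethanol, as many cytosolic synthetase genes did. The part of ATF4 in the synthetase changes was not tested. Of 28 listed genes 25 were in the table, and 17 rose and 1 fell in wild type mice while 14 rose and 1 fell in labelled knockouts, with medians of 1.27 and 1.02. Of all genes 18.9% rose and 14.5% fell in wild type mice, and 13.7% and 10.9% in labelled knockouts. Estimates were above 0 for 22 of the 25 in wild type mice and for 19 in labelled knockouts. The genes of this list named below all rose after ethanol in both genotypes. Atf4 itself read 98.0, 110 and 95.5 CPM in pair-fed and 152, 259 and 272 CPM in ethanol-fed wild type mice. It rose by 1.17 ± 0.19 and 0.81 ± 0.19 (edgeR adjusted p = 0.000702 and 0.00771). Asns, the asparagine synthetase that makes an amino acid and is no tRNA synthetase, rose by 3.96 ± 0.35 and 3.98 ± 0.36. Sesn2, a stress-induced inhibitor of mTORC1 signalling, rose by 2.10 ± 0.21 and 1.18 ± 0.21, and Pck2, mitochondrial phosphoenolpyruvate carboxykinase, by 1.58 ± 0.16 and 0.96 ± 0.16. Between ethanol-fed genotypes Sesn2 was lower in labelled knockouts, at -1.07 ± 0.21 (edgeR adjusted p = 0.0222). Ddit3 rose by 4.32 ± 0.56 and 3.23 ± 0.54, and the pseudokinase gene Trib3 by 5.52 ± 0.67 and 4.78 ± 0.65. The 4 eIF2alpha kinase genes gave 1 rise in wild type mice, Eif2ak2 at 0.59 ± 0.14. In labelled knockouts they gave 1 fall, Eif2ak4 by 0.70 ± 0.14. Mean Eif2ak4 went from 16.6 to 10.2 CPM there and from 12.9 to 9.97 CPM in wild type mice, where it had no call. Its pair-fed and ethanol-fed values did not overlap in either genotype. Pair-fed Eif2ak4 lay wholly higher in labelled knockouts than in wild type mice, without a call. Eif2ak1, which encodes the haem-regulated kinase, stood at -0.44 ± 0.17 and -0.30 ± 0.17 without a call. Between ethanol-fed genotypes Eif2ak2 was lower in labelled knockouts, at -0.76 ± 0.14 (edgeR adjusted p = 0.0192). In that contrast 0.374% of all genes were called lower. For Sesn2 and Eif2ak2 the same ethanol-fed wild type mice enter both the ethanol and the genotype contrast. The interaction was called by edgeR for 0 of the 25 response genes and 0 of the 4 kinase genes, so a different ethanol response by genotype was not shown.

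Other steps of tRNA use gave some calls. They are set beside 18.9% of all genes higher and 14.5% lower in wild type mice, and 13.7% and 10.9% in labelled knockouts. Of 16 genes of tRNA processing and export 7 rose and 1 fell in wild type mice, and 5 rose in labelled knockouts, with medians of 0.44 and 0.42. Elac1, which encodes an enzyme that trims tRNA ends, rose by 1.53 ± 0.21 and 1.22 ± 0.21. Tsen34, a subunit of the tRNA splicing endonuclease, fell by 0.73 ± 0.16 in wild type mice and stood at -0.21 ± 0.16 in labelled knockouts. Xpot, the exporter of tRNA from the nucleus, stood at 0.20 ± 0.17 and 0.34 ± 0.17 without a call. Of 13 synthetase-like, editing and tRNA-dependent conversion genes, 2 rose and 1 fell in wild type mice and 1 rose and 1 fell in labelled knockouts. These shares were no larger than those of all genes, and the medians were 0.04 and 0.03. Tarsl2, a second cytosolic threonyl tRNA synthetase gene outside the naming rule, fell by 1.02 ± 0.23 and 0.73 ± 0.23 (edgeR adjusted p = 0.00445 and 0.0314), whereas Tars had no call. Gatc, a subunit of the amidotransferase that makes mitochondrial glutaminyl tRNA, rose by 1.23 ± 0.32 in wild type mice and stood at 0.67 ± 0.32 in labelled knockouts.

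Calls among the translation factors went in both directions. They are given beside 18.9% of all genes higher and 14.5% lower in wild type mice, and 13.7% and 10.9% in labelled knockouts. Of 15 cytosolic factors 4 rose and 2 fell in wild type mice and 4 rose and 3 fell in labelled knockouts. Eif2b3, a subunit of the eIF2 guanine nucleotide exchange factor, rose by 1.69 ± 0.21 and 1.63 ± 0.22, and Eif2s1, which encodes eIF2alpha, by 0.66 ± 0.15 and 0.58 ± 0.15. Eef1d, an elongation factor subunit, fell by 0.63 ± 0.12 and 0.48 ± 0.12. Of 9 mitochondrial factors, Mtif2 and Mtif3 rose and Tufm fell in wild type mice by edgeR, while limma-voom called Mtif3 alone, and 0 were called in labelled knockouts. In the labelled knockouts edgeR gave an unadjusted p under 0.05 for 2 of the 9 (Mtif2 and Mtif3), and DESeq2 and limma-voom called 0. Of 76 mitochondrial ribosomal protein genes 6 rose and 10 fell in wild type mice and 3 rose and 7 fell in labelled knockouts, with medians of -0.10 and -0.02. In each genotype the share that fell was near that of all genes, and the share that rose was below that of all genes. Mrps2 rose by 1.07 ± 0.14 and 0.68 ± 0.14, Mrps18b by 1.01 ± 0.18 and 1.17 ± 0.18, and Mrps28 fell by 0.89 ± 0.17 and 0.71 ± 0.17.

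Between genotypes, 0 of 37 synthetase genes passed the test in pair-fed or ethanol-fed mice. In pair-fed mice 0.87% of all genes were called between labelled knockout and wild type by edgeR, and in ethanol-fed mice 1.13%. Unadjusted p was under 0.05 for 1 member in pair-fed mice (Pars2) and 4 in ethanol-fed mice (Cars, Mars, Tars and Aars2), where 8.48% and 14.7% of all genes had such a p. DESeq2 and limma-voom each called 1 member in pair-fed mice, Pars2, and 0 in ethanol-fed mice.

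Pars2 stood at 2.91, 3.03 and 2.14 CPM in pair-fed labelled knockouts and at 1.60, 1.34 and 1.29 CPM in wild type mice, without overlap. The log2 fold change of 0.93 ± 0.21 had an edgeR adjusted p of 0.0666, with DESeq2 at 0.0341 and limma-voom at 0.0197. The authors' deposited table gives Pars2 a log2 fold change of 0.93 with an FDR of 0.0262 in pair-fed mice, and no other member had a deposited FDR under 0.05 in either feeding condition. In ethanol-fed mice the Pars2 groups overlapped at -0.05 ± 0.18.

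Counting Pars2, 5 of 37 members had pair-fed labelled knockout values wholly above the wild type values (11.8% of all genes did) and 5 wholly below (12.6%). Aars was among the higher ones at 0.31 ± 0.19 (edgeR adjusted p = 0.730). In ethanol-fed mice 4 members lay wholly higher (6.57% of all genes) and 2 wholly lower (6.21%). Cars had the largest of these, at 42.3, 44.5 and 60.6 CPM in labelled knockouts and 34.4, 36.1 and 26.4 CPM in wild type mice, or 0.60 ± 0.18 on the log2 scale (edgeR adjusted p = 0.134). Aars2 stood at 0.50 ± 0.18, Tars at 0.37 ± 0.15 and Mars at 0.36 ± 0.14, none with a call. The ethanol-fed wild type mice enter both the ethanol and the genotype contrast of these genes, so the low Aars2 and Cars values of wild type mouse 3 count in both.

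**Figure D4:**
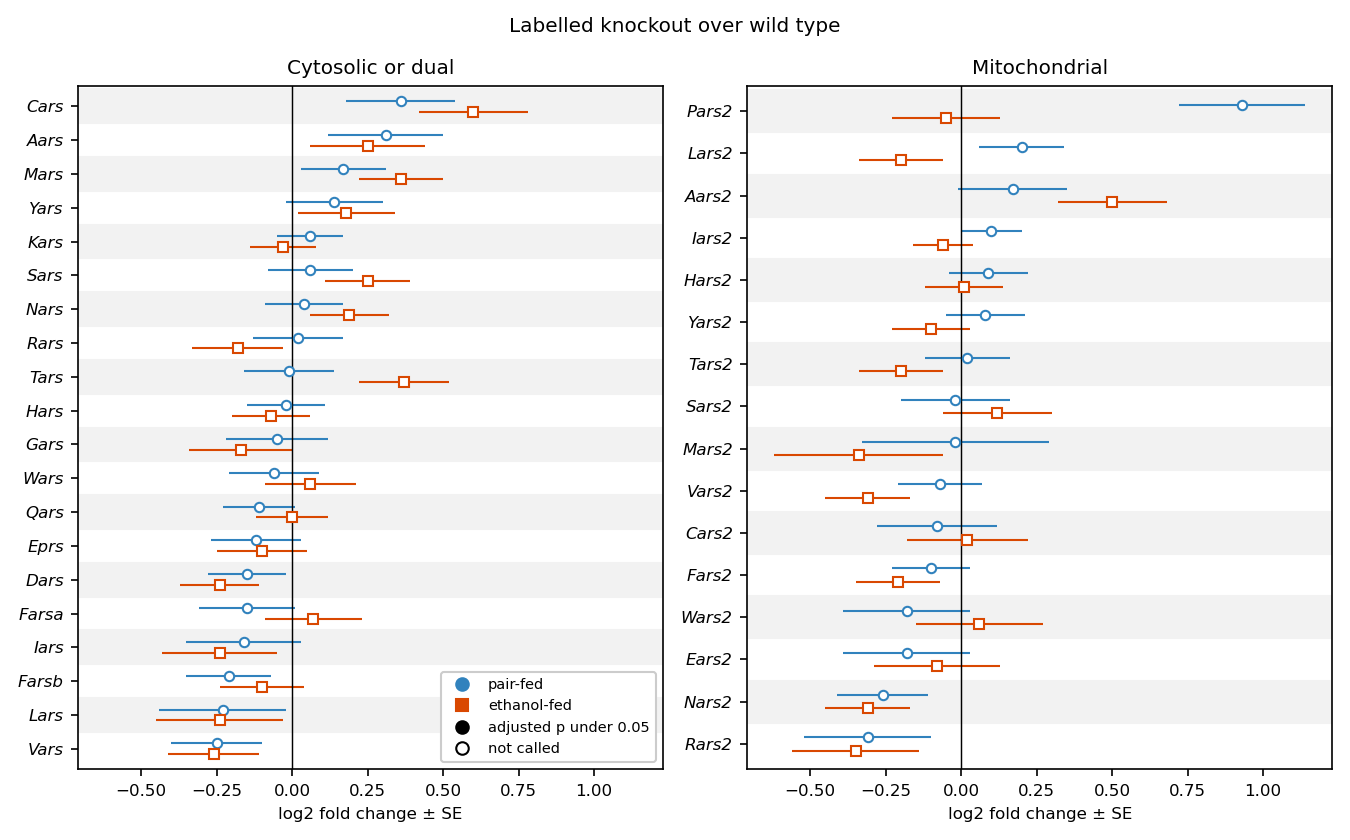
Log2 fold change of labelled knockout over wild type for each synthetase gene described here with its standard error (n = 3 per group), circles for pair-fed and squares for ethanol-fed mice. No symbol is filled, since 0 of 37 genes passed an adjusted p of 0.05; Pars2 at 0.93 in pair-fed mice and Cars at 0.60 in ethanol-fed mice stand farthest right.

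Whether ethanol acted differently under the knockout label was tested by the interaction. It was called for 0 of 37 members by edgeR, DESeq2 and limma-voom, where edgeR called 0.00764% of all genes (1 gene). Pars2 was the single member with an unadjusted p under 0.05, with a smaller ethanol rise in labelled knockouts (-0.98 ± 0.28 on the log2 scale, edgeR adjusted p = 0.936). Calls that appear in 1 genotype alone, such as Dars, Rars2, Wars2 and Aars2 in wild type or Nars, Lars2 and Fars2 in labelled knockout mice, were therefore not shown to differ between genotypes.

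Exons of 9 members overlap a gene on the opposite strand in GENCODE M21, and no label or header names the strand setting of the counting. Reads from the shared bases therefore cannot be told apart. The overlap is 68 of 2963 exonic bases for Mars with Ddit3, which rose after ethanol, 195 of 1989 for Hars with Hars2, 265 of 2539 for Farsb with Sgpp2 and 382 of 1850 for Cars2 with Naxd. The overlaps of Yars, Iars2, Nars2 and Vars2 are of 30 to 296 bases.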

How the data were processed

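Liver RNA of 12 mice was analysed from 1 table of whole-number read counts per gene, which the authors deposited and which is not normalised per the file headers. STAR 2.5, Subread 1.5.3 with featureCounts, mm10 and edgeR 3.20.8 are listed, without roles, per the submitters' processing notes, which name neither annotation nor strand setting. The deposited log2 values are log2 CPM and the authors' log2 fold changes, and the deposited p-values and FDR belong to the authors' genotype comparisons; each is printed only where named.

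Counts were scaled with TMM and tested with edgeR 4.0.16 (R 4.3.3, limma 3.58.1), using robust quasi-likelihood fits over all 12 libraries with 1 coefficient per group and 8 residual degrees of freedom. All 13097 genes passed filterByExpr and entered each adjustment (Benjamini-Hochberg, threshold 0.05). Standard errors were derived from each log2 fold change and its F statistic. CPM values are TMM-scaled, and per kb uses the deposited gene length. The procedure was tested on simulated data. Replicates are separate mice per the series' design text, and every pair within a group differed beyond counting noise. Total counts of 17305141 to 18279809 set the depth; reads carry no molecular identifiers.

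The members, gene lists and subgroups were chosen with earlier results of these data known. A few genes enter the counts but are not reported here by name. Of the genes that are no members, Sirt6, Atf4, Asns, Trib3, Ddit3, Xpot, the 3 scaffolds and up to 3 genes per list with the smallest p for ethanol in wild type mice were named. Alternatives were median-of-ratios size factors, total counts, no filter or at least 1 CPM in 6 libraries, DESeq2 1.42.0, limma-voom with group weights, only the groups compared, a replicate block and each library left out. Promoter windows come from RefSeq (GRCm38.p6) and overlaps from GENCODE M21.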

Additional observations from a re-analysis of the deposited data

How the results depend on the processing

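No synthetase result changed sign as a call under any of the 20 alternatives run for the ethanol contrasts. Of the cytosolic rises 9 (Aars, Eprs, Farsb, Gars, Iars, Lars, Rars, Sars and Wars) and of the mitochondrial rises 2 (Mars2 and Pars2) kept their call in both genotypes under each of them, and of the mitochondrial falls only Lars2 in labelled knockouts did. In wild type mice 1 mitochondrial gene fell with total counts or with only the groups compared, against 2: total counts ended the call of Wars2, and only the groups compared that of Aars2. In labelled knockouts 4 fell with DESeq2 and with limma-voom, against 2, with Wars2 among those added. Total counts raised the share of higher calls among all calls from 56.6% to 74.1% in wild type and from 55.7% to 69.9% in labelled knockout mice. The cause of these changes was not tested.

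Leaving out 1 library gave 9 to 12 cytosolic rises in wild type and 9 to 12 in labelled knockout mice. It gave 2 to 4 mitochondrial rises in each, with 2 to 3 falls in wild type and 1 to 5 in labelled knockout mice. The 2 wild type rises came without ethanol-fed wild type mouse 3. In labelled knockouts 1 fall came without pair-fed labelled knockout mouse 1, 2 or 3 or ethanol-fed labelled knockout mouse 1, and 4 and 5 falls came without ethanol-fed wild type mouse 2 and mouse 3. Over all genes the ethanol contrast ranged from 3023 to 4884 calls in wild type and from 1853 to 3867 in labelled knockout mice. The genotype contrast ranged from 48 to 151 calls when pair-fed and from 69 to 697 when ethanol-fed, and the interaction from 1 to 20; the 697 and the 20 came without ethanol-fed wild type mouse 1. Pair-fed genotype calls numbered 114, with 253 by DESeq2, 554 by limma-voom and 481 when the fit held just those 2 groups, and the 1 mitochondrial gene called by DESeq2 and by limma-voom was Pars2. Ethanol-fed genotype calls numbered 148, with 448 by DESeq2, 21 by limma-voom and 47 when the fit held just those 2 groups. The interaction gave 1 gene by edgeR and 15 by DESeq2, none a synthetase.

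No pairing of mice by the labels' replicate numbers was seen in expression. Correlations of same-numbered deviations ran from -0.168 to 0.158, 2 of 18 over 0.1, and 6 of 18 were highest with their own number. These values cannot show whether same-numbered mice were handled together. With the replicate block the ethanol contrasts called 3949 genes in wild type and 2915 in labelled knockout mice, the genotype contrasts 99 when pair-fed and 118 when ethanol-fed, and the interaction 1, and the wild type call of Rars2 was lost, as with limma-voom. The lowest member, Pars2, had 22 to 28 reads per pair-fed wild type library. With 3 mice per group, standard errors rest on the spread pooled over the 4 groups, which was wider after ethanol.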
